A study of Mus musculus with 10 samples.

Results

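Small leucine-rich proteoglycans (SLRPs) were followed through the muscle transcriptome of mice with cancer cachexia, the loss of body and muscle mass that accompanies a tumor. The 9 genes Dcn, Bgn, Aspn, Fmod, Lum, Prelp, Omd, Ogn and Podn were chosen by name, and each matched 1 of the 39179 gene identifiers listed per sample. Total RNA of the tibialis anterior, the fast muscle at the front of the shin, was sequenced in 4 Control and 6 LLC mice. LLC mice carried tumors of Lewis Lung Carcinoma, a mouse lung cancer cell line, from 750000 cells injected under the skin of each flank, and Control mice received PBS in the same volume. All mice were males by the design text, with no transgene. The strain is C57BL/6J in the sample labels and C57BL/10 in the design text, the age is 10 weeks in the labels and 8 weeks in the design text, and tumors had grown for 23 days in the labels and 22 days in the design text. The strain and age given in each source are the same for both groups. The LLC animals are those that survived to the end, and all their tumors came from 1 cell line.

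SLRPs are secreted proteins built from leucine-rich repeats, most of which carry sulfated sugar chains. They coat collagen fibrils, set their diameter and spacing, and hold growth factors such as TGF-β in the matrix. In skeletal muscle they belong to the connective tissue around fibers and bundles, where interstitial fibroblasts make them, and several are abundant in tendon.

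Of the 9 genes, 8 had enough reads to be tested, and 8 were lower in LLC. The filter asked for about 10 counts in at least as many samples as the smaller group holds, and Omd did not pass it. A gene was called when edgeR's quasi-likelihood test gave a Benjamini-Hochberg adjusted p no higher than 0.05 and the change was at least 1.5-fold. Over all 12690 genes tested, 5.63% were called, 3.99% lower and 1.65% higher, and 0 SLRP genes were called higher. DESeq2's Wald test called the same number of SLRP genes lower, 8, beside 5.24% of genes. The log2 fold changes of the 8 genes ran from -2.55 to -0.77 with a median of -1.36, beside a median of 0.00 over all tested genes. For the 8 tested genes the highest LLC sample lay below the lowest Control sample, which held for 9.57% of all tested genes. The opposite separation held for 0 SLRP genes and for 6.4% of all tested genes.

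Summed over the 9 genes, SLRP transcripts took 195 ± 13.5 CPM (read counts scaled to a common library total with TMM factors) in the Control group (SD, n = 4) and 74.9 ± 7.64 CPM in the LLC group (SD, n = 6). The 4 Control sums lay between 184 and 213 CPM and the 6 LLC sums between 64.4 and 83.5 CPM. In bulk tissue, fewer SLRP-producing cells and less SLRP RNA per cell cannot be told apart.

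**Figure D1:**
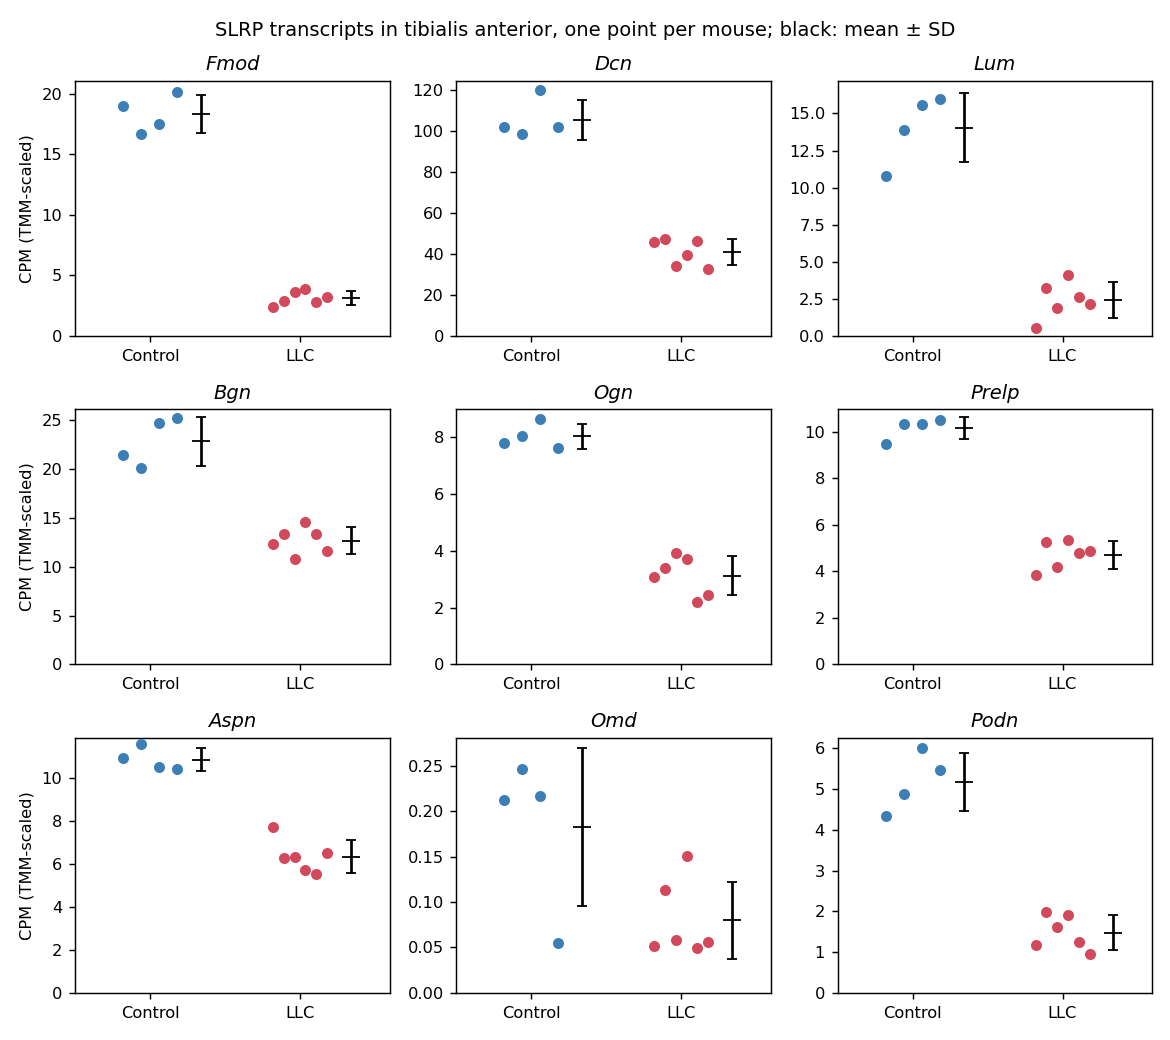
CPM (linear axis from 0, a separate scale for each gene) of the 9 SLRP genes in each of the 4 Control and 6 LLC mice, with the mean ± SD in black beside the points. In every panel except that of Omd, which rests on 1 to 5 counts per library, the 6 LLC points lie below the 4 Control points.

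The libraries held 16693209 to 21303084 counts each, with larger totals in the Control group (two-sided exact permutation p = 0.0381). At that depth 3 counts correspond to 0.148 to 0.174 CPM. The mitochondrial share was 29.6 ± 1.03% (SD, n = 4) among Control libraries and 25.6 ± 2.54% (SD, n = 6) among LLC libraries (two-sided exact permutation p = 0.00952). LLC 1 stood apart from the other LLC libraries, with a chi-square per degree of freedom of 121 to 197 in its 5 pairs and 8.52 to 61.4 in the other 10. The 12 muscle fiber markers had none called, and they summed to 144522 to 153484 CPM in Control and 100264 to 156229 CPM in LLC. Counts are of reads, which carried no molecular identifiers.

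The first class of SLRPs, decorin (Dcn), biglycan (Bgn) and asporin (Aspn), includes the most abundant member. Decorin binds collagen fibrils through its core protein, carries a single chondroitin or dermatan sulfate chain, and sequesters TGF-β. Dcn (mm10, chr10:97479609-97518143, plus strand) stood at 102, 98.3, 119.9 and 102 CPM in Control 1 to 4. In the 6 LLC samples its lowest, median and highest values were 32.6, 42.8 and 47.0 CPM. Every LLC sample was thus below every Control sample, LLC 6 being the lowest and LLC 2 the highest of the group. Dcn fell by 1.36 ± 0.12 (SE) on the log2 scale (edgeR adjusted p = 0.000184). Its share of the summed SLRP CPM was 54.0 ± 1.98% (SD, n = 4) for Control mice and 54.5 ± 4.27% (SD, n = 6) for LLC mice.

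Biglycan, the close relative of decorin, can carry a further such chain and, when released from the matrix, acts on Toll-like receptors. Bgn (chrX:73483602-73495933, plus strand) measured 21.4, 20.05, 24.7 and 25.3 CPM in the 4 Control samples. LLC values were 10.8 CPM at the lowest, 12.8 at the median and 14.6 at the highest. The change of -0.85 ± 0.11 (SE) on the log2 scale was one of the smaller falls (edgeR adjusted p = 0.000807), though the groups did not overlap. Asporin binds collagen and TGF-β like decorin, carries a run of aspartate residues and lacks the sugar chain. Aspn (chr13:49544443-49567565, plus strand) had 10.9, 11.6, 10.5 and 10.4 CPM in Control and 5.55, 6.29 and 7.71 CPM in LLC (lowest, median, highest). LLC 1, which was the lowest LLC sample for 3 other SLRP genes, was the highest for Aspn. The fall in Aspn, -0.77 ± 0.11 (SE), was the smallest among the 8 tested genes (edgeR adjusted p = 0.00127). With a test against a 1.5-fold change, edgeR's adjusted p was 0.158 for Bgn and 0.386 for Aspn, and neither was called.

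The second class, fibromodulin (Fmod), lumican (Lum), PRELP (Prelp) and osteomodulin (Omd), holds core proteins several of which can carry keratan sulfate. Fibromodulin shares a collagen binding site with lumican and is known for fibril growth in tendon. Fmod (chr1:134037254-134048277, plus strand) stood at 19.0, 16.6, 17.5 and 20.2 CPM in Control. The LLC values were 2.42, 3.06 and 3.88 CPM (lowest, median, highest), so the highest LLC sample was 4.29-fold below the lowest Control sample. Fmod had 1388 counts over the 4 Control libraries and 351 over the 6 LLC libraries. It showed the largest fall of the 8 tested members, -2.55 ± 0.13 (SE) on the log2 scale, with the lowest adjusted p among them (edgeR, 2.29e-06).

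Lumican keeps collagen fibrils thin and evenly spaced, best known from the transparent cornea. Lum (chr10:97565128-97572703, plus strand) lies 47.0 kb downstream of Dcn on the same strand. Control samples 1 to 4 had 10.8, 13.9, 15.6 and 15.9 CPM. The LLC samples had 0.514, 2.38 and 4.08 CPM at the lowest, median and highest. The lowest value, 10 counts in LLC 1, lay far below the other 5, and Lum had the widest LLC spread of the 8 tested genes. Lum fell by 2.54 ± 0.34 (SE) on the log2 scale (edgeR adjusted p = 0.00115). Without LLC 1 the change was -2.32 (edgeR adjusted p = 3.11e-05).

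PRELP binds collagen at its repeats and heparan sulfate at its basic end, and so links basement membranes to the matrix. Prelp (chr1:133910304-133921414, minus strand) measured 9.48, 10.3, 10.3 and 10.5 CPM in Control, the tightest Control group of the 8 tested members on the log2 scale (SD 0.066). Its LLC values were 3.86, 4.84 and 5.34 CPM (lowest, median, highest). Prelp fell by 1.11 ± 0.11 (SE) on the log2 scale (edgeR adjusted p = 0.000233). An antisense gene, Gm15851, shares 350 exonic bases with Prelp and had 1 count in all over the 10 libraries.

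Osteomodulin is a keratan sulfate proteoglycan of mineralized matrix. Omd (chr13:49582462-49592822, plus strand) had 4, 5, 4 and 1 counts in Control 1 to 4 and 1 to 3 counts in each LLC sample. All 6 LLC libraries thus lay at or under 3 counts. With no filter, edgeR gave a log2 change of -1.13 (adjusted p = 0.261). The fit did not settle whether Omd changed by the size seen in the other members, and the detection limit at this depth was not tested.

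Osteoglycin (Ogn), also called mimecan, is a third-class SLRP of connective tissue and bone. Ogn (chr13:49608046-49624501, plus strand) had 7.79, 8.05, 8.65 and 7.61 CPM in Control and 2.18, 3.24 and 3.94 CPM in LLC (lowest, median, highest). LLC 5 and LLC 6 were the lowest samples and LLC 3 the highest, and none reached the Control range. The fall was -1.36 ± 0.16 (SE) on the log2 scale (edgeR adjusted p = 0.000553). Aspn, Omd and Ogn lie in a row on the same strand, 14.9 and 15.2 kb apart, within the span of Cenpp, a centromere gene. Cenpp shares 7 exonic bases with Aspn on the opposite strand and had 9 to 30 counts per library.

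Podocan (Podn), of the fifth class, binds collagen and was first described in kidney glomeruli. Podn (chr4:108014791-108096445, minus strand) stood at 4.34, 4.89, 6.00 and 5.48 CPM in Control and at 0.950, 1.43 and 1.98 CPM in LLC (lowest, median, highest). LLC 6 had the lowest value, 17 counts, and LLC 2 the highest. Podn fell by 1.80 ± 0.20 (SE) on the log2 scale (edgeR adjusted p = 0.000402), the third largest fall after Fmod and Lum.

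**Figure D2:**
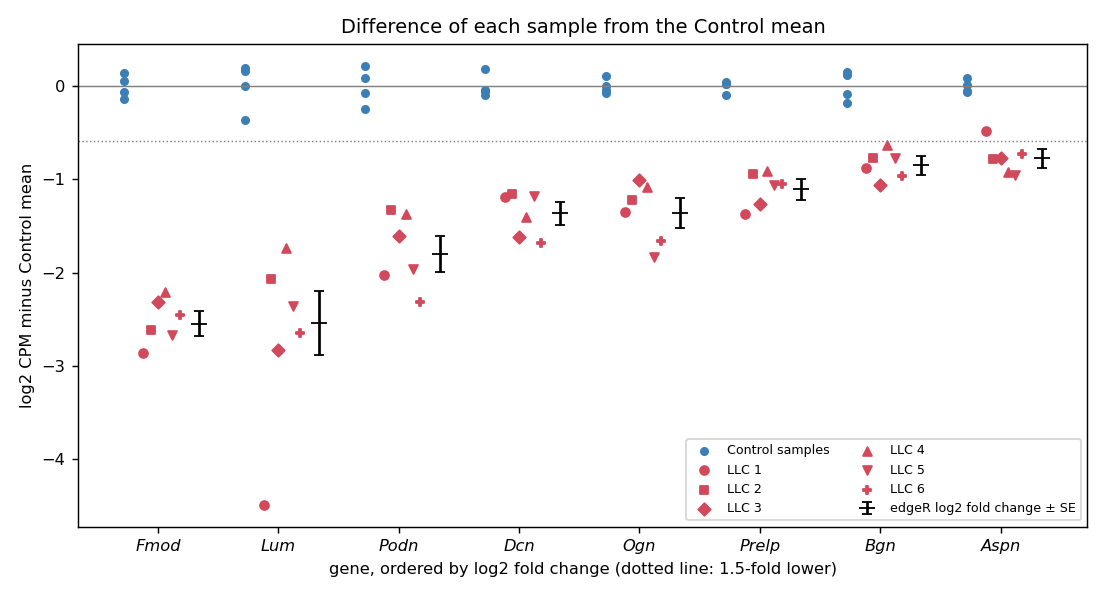
Log2 CPM minus the Control mean (y axis) of the 8 tested SLRP genes, with 4 Control samples in blue, each LLC sample by its own red symbol and the edgeR log2 fold change ± SE in black. Fmod and Lum lie lowest, at -2.55 and -2.54, and Bgn and Aspn nearest to 0, at -0.85 and -0.77, and LLC 1 is far below the other LLC samples for Lum and above them for Aspn.

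Sequence upstream of the members that bracket this range is shown for reference, since the genes moved together by different amounts. Promoter windows of RefSeq (GRCm38.p6, 250 bases before to 50 after the start) were matched for 7 of the 9 members, in 8 windows. The 250 bases before the start are printed, 5′ to 3′ on the gene's strand, for Fmod with the largest fall, Bgn and Aspn with the smallest, and Ogn from the same gene row as Aspn. Capitals mark matches on either strand to the TATA box (TATAAA), GC box (GGGCGG) or MCAT element (CATTCC).
Fmod, chr1:134037004-134037253, plus strand: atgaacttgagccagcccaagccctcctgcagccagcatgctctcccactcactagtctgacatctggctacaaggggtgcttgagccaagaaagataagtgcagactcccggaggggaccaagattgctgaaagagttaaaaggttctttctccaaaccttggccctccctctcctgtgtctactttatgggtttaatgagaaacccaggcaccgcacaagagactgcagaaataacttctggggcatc
Bgn, chrX:73483351-73483600, plus strand: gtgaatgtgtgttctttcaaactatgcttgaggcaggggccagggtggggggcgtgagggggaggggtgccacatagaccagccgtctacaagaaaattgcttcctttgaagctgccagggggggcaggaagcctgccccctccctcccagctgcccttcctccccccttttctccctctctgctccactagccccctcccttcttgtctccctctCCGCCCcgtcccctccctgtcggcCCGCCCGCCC
Aspn, chr13:49544193-49544442, plus strand: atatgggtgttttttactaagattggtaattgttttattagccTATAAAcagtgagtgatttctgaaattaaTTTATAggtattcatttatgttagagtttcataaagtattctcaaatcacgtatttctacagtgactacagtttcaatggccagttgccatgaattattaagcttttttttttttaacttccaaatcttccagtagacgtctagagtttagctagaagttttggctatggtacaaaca
Ogn, chr13:49607765-49608014, plus strand: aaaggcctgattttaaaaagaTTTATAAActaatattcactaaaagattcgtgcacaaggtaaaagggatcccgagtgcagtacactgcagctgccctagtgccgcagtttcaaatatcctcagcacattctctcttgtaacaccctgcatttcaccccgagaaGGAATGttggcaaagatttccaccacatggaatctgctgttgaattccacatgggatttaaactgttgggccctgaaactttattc

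The windows ranged widely in composition. GC content of the whole window was 31.0% for Aspn, 42.3% for Ogn, 51.0% for Fmod, 63.7% for Bgn and 77.0% for the first of 2 Podn windows, with a median of 52.67% over 32851 windows. Both Podn windows use RefSeq starts inside the GENCODE span given above, with 250 bases at chr4:108031955-108032204 and chr4:108030987-108031236. They are not at the upstream end of that span. The 3 GC boxes of Bgn begin 34, 10 and 6 bases before the start, the last 2 overlapping, and Podn has 2 further GC boxes. Such a match was present in 35.66% of all windows. TATA box matches occurred in Aspn and Ogn, well upstream of the start, and in 13.62% of all windows. The MCAT element, a site of TEAD factors in muscle genes, occurred once, in Ogn, and in 14.66% of all windows. The SMAD element CAGACA was found after the start in Prelp and in the second Podn window, and in 21.04% of all windows. The AP-1 element TGANTCA (7.808% of all windows), the STAT element TTCNNNGAA (8.298%) and the forkhead element GTAAACA (3.65%) had no match in the 8 member windows. A match describes letters and is not a bound site.

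The order of the SLRP levels differed between the groups. Per kilobase of exon, in RPKM (CPM divided by the exonic length in kilobases), Dcn led in Control with 18.1 ± 1.67 (SD, n = 4). Lum at 5.74 ± 0.957 RPKM and Fmod at 5.55 ± 0.472 RPKM followed and overlapped each other. Aspn had 4.61 ± 0.223 RPKM, below every Fmod value, but Lum in Control 1, at 4.41 RPKM, was lower than all 4 Aspn values. Bgn at 3.74 ± 0.413 RPKM and Ogn at 3.13 ± 0.177 RPKM overlapped, and Prelp had 2.81 ± 0.128 RPKM and Podn 1.21 ± 0.168 RPKM. In LLC Dcn again led, with 7.02 ± 1.11 RPKM (SD, n = 6), but Aspn at 2.69 ± 0.326 RPKM and Bgn at 2.08 ± 0.225 RPKM followed, with overlapping ranges. Lum at 0.982 ± 0.4997 RPKM and Fmod at 0.947 ± 0.165 RPKM then stood below Prelp at 1.30 ± 0.163 and Ogn at 1.22 ± 0.272 RPKM. These last 4 overlapped in range. With the length of the longest transcript in place of the merged exons, Bgn stood at 8.57 RPKM in Control, second to Dcn at 22.5 RPKM.

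Within a class, Fmod and Prelp did not change by the same amount, nor did Dcn and Bgn, whereas the ratio of Fmod to Lum showed no called shift. The other pairs below join genes of different classes. Ratios within a sample cancel the library scaling, and 7 pairs were compared by exact permutation tests (two-sided, 210 splits, smallest p 0.00952, Benjamini-Hochberg over the 7). Fmod and Prelp, 116 kb apart on opposite strands of chromosome 1, had log2 ratios of 0.68 to 0.996 in Control and -0.84 to -0.21 in LLC. Fmod thus went from above Prelp in every Control sample to below it in every LLC sample, a shift of -1.42 (exact permutation test, adjusted p = 0.0167). The Dcn to Lum log2 ratio rose from 2.66 to 3.23 in Control to 3.25 to 6.21 in LLC, with a mean shift of 1.32 (exact permutation test, adjusted p = 0.0167). LLC 1 held the highest ratio, and without it the shift was 0.92 (adjusted p = 0.0278, exact permutation test). Dcn also lost ground to Bgn, its closest relative, by -0.53 (exact permutation test, adjusted p = 0.0167).

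The Ogn to Aspn ratio, of genes in the same row on chromosome 13, shifted by -0.59 (exact permutation test, adjusted p = 0.0167). The ratio of Fmod to Lum, which share a collagen site, shifted by 0.17 (exact permutation test, adjusted p = 0.800), and its sign turned without LLC 1, at -0.12. Both ratios that hold Omd rest on its 1 to 5 counts per library, and their values follow the prior count added before the log. Ogn to Omd shifted by -0.76 with overlapping groups (exact permutation test, adjusted p = 0.0267), and by -0.46 with a prior count of 0.5 (adjusted p = 0.440). It was also not called without Control 1, Control 3 or Control 4 (exact permutation test, adjusted p = 0.0667 each), at -0.84, -0.80 and -0.52. Omd to Aspn shifted by 0.17 (exact permutation test, adjusted p = 0.633).

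**Figure D3:**
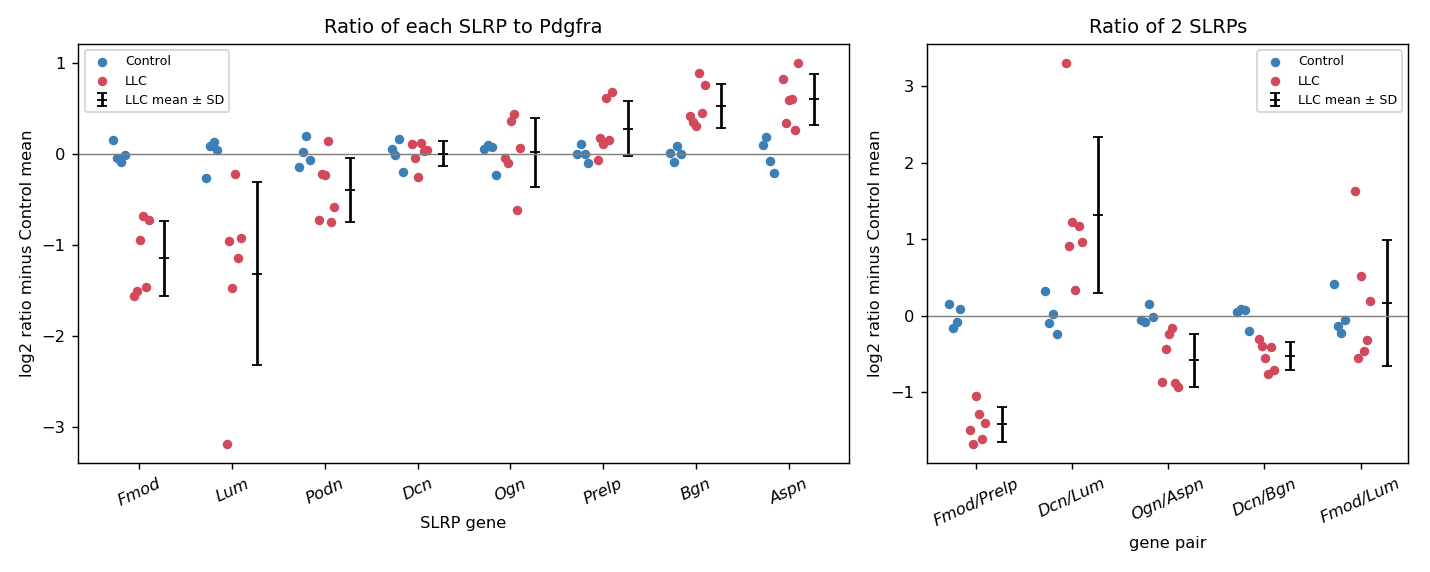
Log2 ratio minus the Control mean of that ratio (y axis) in 4 Control samples (blue) and 6 LLC samples (red), with the LLC mean ± SD in black, for each SLRP over Pdgfra (left) and for 5 pairs of SLRPs (right). Relative to Pdgfra, Fmod lies at -1.15, Dcn at 0.00 and Aspn at 0.60, and in the right panel LLC 1 has the highest Dcn to Lum ratio.

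Fibroblast markers moved with the SLRPs. Of 14 markers of fibro-adipogenic progenitors, the interstitial fibroblasts of muscle, 11 were called lower, 1 higher and 2 neither, with a median log2 fold change of -1.46. The 11 are 78.6% of the list, beside 3.99% of all tested genes called lower and 1.65% called higher. The summed level of the 14 markers was 365 to 445 CPM in Control and 186 to 252 CPM in LLC. By its mean, Gsn was the largest part, with 232 ± 23.6 CPM (SD, n = 4) in Control and 80.8 ± 16.5 CPM (SD, n = 6) in LLC. The authors list Gsn with the sarcomere genes, so the sum does not stand for fibroblasts alone. The defining receptor Pdgfra had 5.61, 5.63, 6.11 and 6.68 CPM in Control and 1.73, 2.31 and 2.71 CPM in LLC (lowest, median, highest). Its groups did not overlap, and its log2 change was -1.40 ± 0.14 (SE; edgeR adjusted p = 0.000184). Ly6a, the surface antigen Sca-1, was the marker called higher, at 0.95 ± 0.15 (SE; edgeR adjusted p = 0.00359). The part of cell number in the SLRP changes was not tested.

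Relative to Pdgfra the SLRPs separated, in a comparison of 8 ratios that was chosen after the data were seen. Each shift restates the change of a member against the log2 change of Pdgfra, -1.40, and is no separate evidence. Of 10376 genes searched, Pdgfra had the profile nearest to that of Dcn, so a Dcn ratio near 0 follows from this denominator. Bgn rose by 0.53 and Aspn by 0.60 on the log2 scale relative to Pdgfra (exact permutation test, adjusted p = 0.0254 each), with no overlap between groups. Fmod fell by 1.15 relative to it, again with no overlap (exact permutation test, adjusted p = 0.0254). Lum shifted by -1.32 (exact permutation test, adjusted p = 0.0381), but LLC ratios reached into the Control range. The ratios of Dcn, at 0.00, and Ogn, at 0.02, had adjusted p = 0.990 by the exact permutation test. Across the omission of single samples, the Dcn shift stayed between -0.066 and 0.056, and that of Ogn between -0.067 and 0.14. Prelp shifted by 0.28 and Podn by -0.39, and neither passed (exact permutation test, adjusted p = 0.127 and 0.122). With any 1 Control sample left out, 84 splits remain. The adjusted p for Fmod, Bgn and Aspn was then 0.0635 without Control 2, Control 3 or Control 4, and 0.0476 without Control 1 (exact permutation test). The shift of Lum was called in 2 of the 10 omissions, those of Control 1 and LLC 4, and without LLC 1 it was -0.94 (exact permutation test, adjusted p = 0.0508).

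Tendon markers were lower as well. Of 9 tested markers of tenocytes and the myotendinous junction, 7 were called lower and 0 higher, with a median of -2.13. The share called lower was 77.8%, beside 3.99% of all tested genes. The 7 include Chad, which is itself an SLRP family gene. Summed over all 11 listed markers, the level was 78.4 to 96.7 CPM in Control and 12.8 to 40.9 CPM in LLC. Thbs4 was the largest part by its mean, with 43.9 ± 4.01 CPM (SD, n = 4) in Control and 15.1 ± 6.27 CPM (SD, n = 6) in LLC. In Control, Col22a1, which was not called, followed at 18.4 ± 2.12 CPM, and Egr1 at 14.1 ± 9.23 CPM (SD, n = 4). Tnmd, the tendon membrane protein tenomodulin, had 68 counts over the Control libraries and 6 over the LLC libraries, while Scx, a transcription factor of tendon cells, had 2.44 ± 0.479 CPM (SD, n = 4) and 2.31 ± 1.16 CPM (SD, n = 6). How much tendon each dissection carried was not tested. Of 8 pericyte and smooth muscle markers, 4 were called lower and 0 higher (median -0.55), and of 8 endothelial markers, 1 was lower and 0 higher (median 0.09). The shares called lower were 50% and 12.5%, beside 3.99% of all tested genes. Of 2 tested cartilage and bone markers 0 were called. Among genes below the filter, Ibsp of that list reached 22 and 30 counts in Control 2 and Control 3. Mmp13, listed here with the proteases, reached 44 and 91 counts in the same samples. Without both of these samples all 8 tested SLRP genes were still called lower, Fmod at -2.64 and Aspn at -0.75.

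Of 9 further SLRP family genes 3 were tested, and 2 of them were called lower, beside 3.99% of all tested genes. Chad, chondroadherin of cartilage and tendon, had 86 counts in Control and 12 in LLC (log2 change -3.32 ± 0.45 SE, edgeR adjusted p = 0.00115). Ecm2, a matrix protein next to Aspn on chromosome 13, fell by 1.25 ± 0.19 (SE; edgeR adjusted p = 0.00206), and Chadl was not called (-0.12 ± 0.46 SE). Below the filter, Kera, keratocan, had 46 counts over the Control libraries and 6 over the LLC libraries, and Epyc had 0 counts in all 10 samples. Chad and Kera also stand in the list of tendon markers, so the 2 lists are not independent. Of 10 tested collagens that SLRPs bind, 10 were called lower, beside 3.99% of all tested genes, with a median of -2.35. The main fibrillar chains were Col3a1 (-3.09 ± 0.39 SE), Col1a1 (-3.08 ± 0.29 SE) and Col1a2 (-2.77 ± 0.33 SE), and the fibril-associated Col12a1 stood at -2.54 ± 0.38 (SE).

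**Figure D4:**
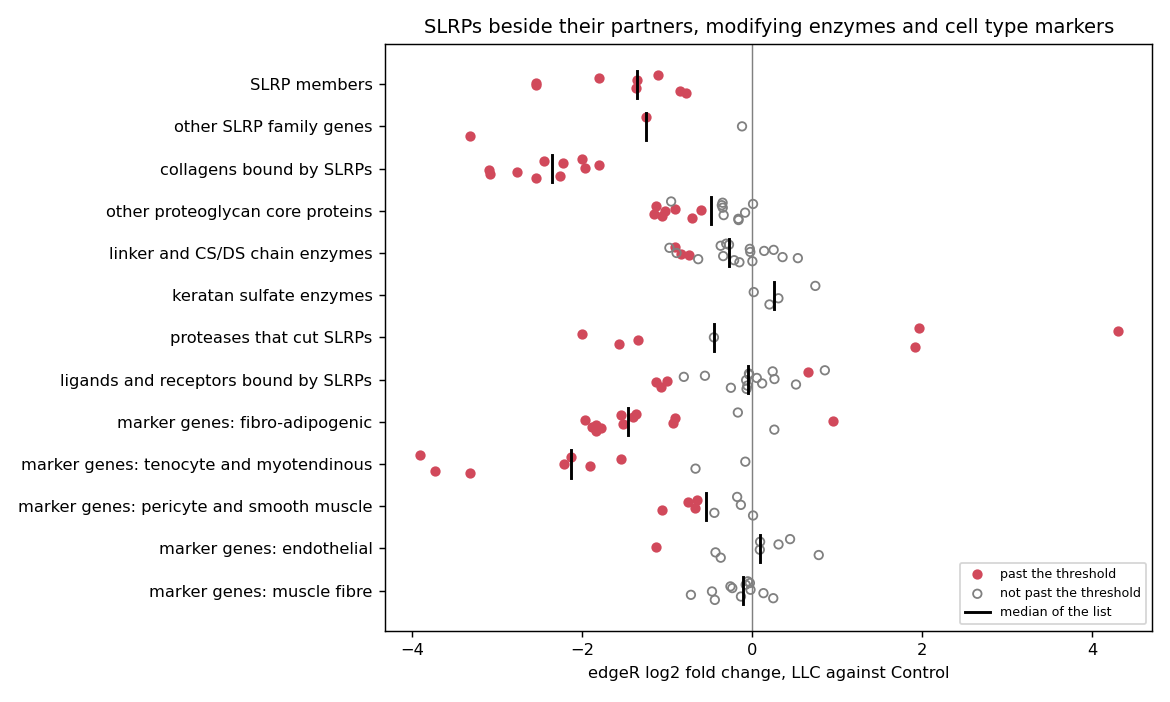
EdgeR log2 fold change, LLC against Control (x axis), of each tested gene in 13 lists (rows), filled where the gene passed the threshold and open where it did not, with the median of each list as a black bar. The medians are -1.36 for the SLRP genes, -2.35 for the collagens, -0.27 for the linker and chondroitin or dermatan sulfate enzymes and -0.10 for the muscle fiber markers.

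The sugar chains are built by a separate set of enzymes. Of 19 tested enzymes of the linker and of chondroitin or dermatan sulfate, 3 were called lower, or 15.8% beside 3.99% of all tested genes, and 0 higher (median -0.27). These were the epimerase Dsel (-0.91 ± 0.20 SE) and the sulfotransferases Chst15 (-0.83 ± 0.20 SE) and Chst14 (-0.74 ± 0.20 SE). The abundant linker kinase Fam20b had 90.7 ± 2.90 CPM (SD, n = 4) for Control and 70.2 ± 14.4 CPM (SD, n = 6) for LLC, and Csgalnact2, a chain initiating transferase, 41.7 ± 1.71 and 40.9 ± 2.41 CPM, and neither was called. Of 4 tested keratan sulfate enzymes 0 were called (median 0.26), among them B4galt1 at 0.20 ± 0.18 (SE) and B4galt4 at 0.31 ± 0.13 (SE).

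Proteases that cut SLRPs went both ways, with 3 called lower, 3 higher and 1 neither. Over all tested genes, 3.99% were called lower and 1.65% higher. Mmp2, gelatinase A of fibroblasts, was lower (-2.01 ± 0.11 SE, edgeR adjusted p = 2.29e-06), as were Adamts5 (-1.57 ± 0.21 SE) and Bmp1 (-1.35 ± 0.13 SE), the enzyme that trims the decorin and biglycan propeptides. Mmp8, the neutrophil collagenase, was higher, from 4 counts over the Control libraries to 131 over the LLC libraries. Mmp9 (1.97 ± 0.51 SE) and Adamts4 (1.91 ± 0.50 SE) were higher too, and Mmp14 was not called (-0.45 ± 0.21 SE). All 8 tested neutrophil markers, Mmp8 among them, were called higher. Summed over all 10 listed, the neutrophil markers had 0.741 to 2.57 CPM in Control and 34.1 to 73.2 CPM in LLC. Their part in these protease changes was not tested.

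Among 18 ligands and receptors that SLRPs bind, 3 were called lower (16.7%) and 1 higher, with a median of -0.05. Over all tested genes, 3.99% were called lower and 1.65% higher. The lower genes were Kdr, a VEGF receptor bound by decorin (-1.13 ± 0.26 SE), Ccn2, connective tissue growth factor (-1.07 ± 0.23 SE), and Lrp1, an endocytic receptor of decorin (24.5 ± 2.29 CPM in 4 Control and 12.2 ± 1.65 CPM in 6 LLC samples, mean ± SD). Tgfbr1, a TGF-β receptor, was higher (0.65 ± 0.18 SE, edgeR adjusted p = 0.0478). Itgb1 (0.12 ± 0.10 SE) and Tgfb3 (-0.04 ± 0.10 SE) were not called. Tgfb1 was lower (-0.56 ± 0.14 SE, edgeR adjusted p = 0.0331) but fell short of the 1.5-fold minimum and was not called either. Of 16 other proteoglycan core proteins, 7 were called lower (43.8%) and 0 higher (median -0.48). Among the 7 were the cell surface proteoglycans Gpc3 (-1.15 ± 0.21 SE), Sdc2 (-1.13 ± 0.18 SE), Cspg4 (-1.06 ± 0.20 SE) and Gpc6 (-1.02 ± 0.24 SE). The abundant Gpc1 (-0.34 ± 0.14 SE) and Sdc4 (0.01 ± 0.17 SE) were not called.

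The genes with the most similar profiles differed between members. Likeness was the root mean square difference in log2 CPM, centered on the Control mean, over the same 10 samples. The search took 10376 tested genes above a minimum mean level, without the members. Likeness holds the size of the group difference, so genes with similar falls lie near each other. Nearest to Dcn were Pdgfra (0.13), the eosinophil chemokine Ccl11 (0.15) and Heyl (0.16). For Aspn the nearest was the pericyte receptor Pdgfrb (0.10), followed by Plxdc2 (0.12) and Lims2 (0.14). Bgn and Prelp each had a complement protease first, C1s1 (0.10) and C1ra (0.11). Plxdc1 and Nbl1 followed for Bgn, and Adcy7 and Hmcn2 for Prelp.

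Fmod and Lum, the members with the largest falls, had collagen genes nearest, at larger distances. Since likeness holds the size of the fall, this partly restates their fold changes. For Fmod these were Col6a1 (0.34) and Col6a2 (0.41), then Mmp2 (0.45), and for Lum Col6a2 (0.34), Col1a2 (0.42) and Col1a1 (0.52). Ogn was nearest to Ecm2 (0.16), also on chromosome 13, then Bmp1 and Fstl1. Podn was nearest to Col5a2 (0.20), the microfibril gene Fbn1 (0.20) and the collagen uptake receptor Mrc2 (0.21). The mean profile of the 8 members was closest to Mrc2, Itih5, Crispld2, Bmp1, Smoc2, Gsn, Fstl1, Cxcl14, Ltbp4 and Igfbp6, at 0.14 to 0.23. Smoc2 and Gsn also stand in the list of fibroblast markers.

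The LLC samples did not keep 1 order across the members. The mean log2 difference from Control over the 8 genes ran from -1.28 in LLC 4 to -1.83 in LLC 1. LLC 4 was the highest LLC sample for Fmod, Lum, Bgn and Prelp, and LLC 1 was the lowest for Fmod, Lum and Prelp and the highest for Aspn. LLC 6 was the lowest for Dcn and Podn, LLC 5 for Ogn and Aspn, and LLC 3 for Bgn. The LLC group had the wider log2 CPM spread (SD) for 7 of the 8 genes and for 85.1% of all tested genes, whose median SD was 0.13 in the Control group and 0.28 in the LLC group. Of the 8 genes, 5 had an LLC SD below that median. Lum was at the other end, with an LLC SD of 0.97, above that of 97.9% of tested genes.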

How the data were processed

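RNA of 10 tibialis anterior samples, 4 Control and 6 LLC by the sample labels, had been sequenced from stranded total RNA libraries. The authors mapped reads with TopHat to mm10 and counted them with HTSeq, and the deposited values are raw read counts per gene, not normalized. The study's methods state HTSeq's default settings and RefSeq genes, whereas the files list Ensembl identifiers, so it is uncertain that the stated settings made these files. The annotation release is not given in the sources used here. Coordinates and exonic lengths came from GENCODE M21 (GRCm38, mm10), and 37693 identifiers matched. Small RNA libraries were not analysed here.

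Genes were filtered with filterByExpr (count minimum 10), scaled by TMM and tested by edgeR 4.0.16 (R 4.3.3) in 1 quasi-likelihood fit of all 12690 genes with group as the only term. SE was derived from the F statistic. For log2 CPM the prior count was 2. Called genes had an adjusted p of at most 0.05 and a change of at least 1.5-fold. Ratios used exact permutation tests. DESeq2 1.42.0 (the authors' tool), limma 3.58.1 voom weights, other scalings and filters, a 1.5-fold test, the replicate number as a block and single-sample omissions were alternatives. The script was tested on simulated data. Replicate libraries differed beyond counting noise in every pair.

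The members and gene lists were chosen with earlier results of these data known. All 9 members were named, and from each list of partners or enzymes up to 4 called genes by size of change and the 2 most abundant uncalled ones. Adamts5, Bmp1, Mmp13, Kera, Epyc, Tgfb1 and the marker genes were named after their values were seen, as were the ratios to Pdgfra. Of the marker lists not given in the report, macrophage markers had 1 lower and 1 higher of 9, adipocyte 0 of 4, Schwann 3 lower of 6, erythroid 3 higher of 5 and satellite cell 2 lower of 4.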

Additional observations from a re-analysis of the deposited data

Results flagged for a closer look

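In 30 groups of 4 or 6 samples (log2 CPM or log2 ratio of SLRP genes in Control or LLC), 3 had 1 sample far from the rest by Dixon's test, where chance gives about 1 in 20, or 1.5. The Dcn to Lum log2 ratio of LLC 1 was 6.21 and that of the other 5 LLC samples at most 4.13, a gap of 0.703 of the whole range. Lum had 10 counts in that library. The Dcn to Bgn log2 ratio of Control 4 was 2.00, below the 2.25 to 2.29 of the other 3 Control samples, a gap of 0.861 of the range. The Omd to Aspn log2 ratio of Control 4 lay lowest, with a gap of 0.923 of the range, where Omd had 1 count.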

How the results depend on the processing

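All 8 tested SLRP genes kept their direction under 21 alternatives. Bgn and Aspn were not called with the 1.5-fold test or with the replicate block (adjusted p = 0.0546 and 0.0672, edgeR), which left 6 called, and the other 6 genes were called throughout. Among all genes, the 715 called became 475 with 10 counts in every sample, 192 with the 1.5-fold test, 112 with the replicate block, 158 without Control 2 and Control 3 (added after seeing the data), 1052 by DESeq2 and 415 to 966 with single samples left out. Scaling moved the median of all genes by at most 0.03. Same-numbered samples showed little shared deviation from their group means (r -0.08 to 0.13). Without mismatched pairs for comparison, these values cannot exclude that the numbers mark pairs. As pairs, 4 samples a group allow no p under 0.125, and the ratios with the block were -1.38 for Fmod to Prelp, 1.44 for Dcn to Lum, -0.66 for Ogn to Omd, -0.43 for Ogn to Aspn and -0.51 for Dcn to Bgn, none called by the exact test. A prior count of 0.5 gave -0.46 for Ogn to Omd and -0.14 for Omd to Aspn. With single samples left out, the ranges were -0.87 to -0.52 for Ogn to Omd, -0.068 to 0.27 for Omd to Aspn and -0.12 to 0.31 for Fmod to Lum. Relative to Pdgfra they were -1.24 to -1.07 for Fmod, -0.066 to 0.056 for Dcn, -1.54 to -0.94 for Lum, 0.46 to 0.57 for Bgn, -0.067 to 0.14 for Ogn, 0.52 to 0.67 for Aspn and -0.50 to -0.32 for Podn, which was called without LLC 4 (-0.50). With 1 Control sample left out no exact p can fall under 0.0238. The causes of these differences between settings were not tested. Depth limits Omd, at 1 to 5 counts per library.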
